A study of Mus musculus with 13 samples.

Results

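The 10 genes described here encode plasma membrane carriers of amino acids: Slc7a1, Slc7a3, Slc7a5, Slc7a11, Slc3a2, Slc1a4, Slc1a5, Slc38a1, Slc38a2 and Slc6a9. These genes were chosen by name, with earlier results of these data known. They were represented by 20 probe sets that the platform annotation gives to 1 gene only, out of 45037 probe sets and 18193 genes tested. C2C12, an established line of mouse myoblasts, was grown to 90% confluence in 5% fetal bovine serum (FBS), held in 0.2% FBS for 24 h and returned to FBS, in flasks set up in parallel. RNA was taken every 0.5 h, and 13 time points from 0 to 6.0 h are analysed here, with 1 Affymetrix mouse array each. For tests, the arrays were put into an early window (0.5 to 2.0 h), a middle window (2.5 to 4.0 h) and a late window (4.5 to 6.0 h) of 4 arrays each, with the single 0 h array, the end of low serum, as the baseline. All samples come from 1 cell line and none used here stayed in low serum, so time after serum, time in the fresh medium and time in culture cannot be told apart. No time point was repeated, and the arrays of a window differ in time, so each SD and p-value measures the spread of a window, which holds both array error and real change with time.

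Cells take up amino acids through families of carriers that differ in what they move and in what drives them. Slc3a2 (the CD98 heavy chain) carries no amino acid itself but takes light chains of the Slc7 family to the cell surface. Among these, Slc7a5 (LAT1) exchanges intracellular glutamine and other neutral amino acids for leucine and other large neutral amino acids, which feed protein synthesis and mTORC1 signalling. Slc7a11 (xCT) exchanges intracellular glutamate for cystine, the source of cysteine for glutathione. Slc7a1 and Slc7a3 are uniporters of arginine and lysine that need no heavy chain. Slc1a4 and Slc1a5 exchange small neutral amino acids with sodium, Slc38a1 and Slc38a2 import glutamine, alanine and similar amino acids with sodium, and Slc6a9 imports glycine. Several of these genes are known targets of ATF4, the transcription factor of the amino acid response.

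Each deposited value is a ratio to a reference that is not stated in the sources used here, so values show how 1 probe set varied over time and not how much of a transcript was present. Levels of different genes cannot be compared, and the labelled cell type cannot be checked by the level of its markers. A gene value is the mean log2 ratio over the probe sets of the gene. Gene values of single arrays are printed below turned back into ratios, as the geometric mean over the probe sets. The median ratio of an array lay between 0.977 and 1. The interquartile range of the log2 ratios was 0.318 at 0 h and 0.259 at 0.5 h, against 0.150 to 0.242 on the other arrays. Of the markers of other states, 6 of 7 differentiated muscle genes rose and 4 of 7 fibroblast genes fell in the late against the early window. Over all genes, 11.7% rose and 9.29% fell in that comparison. There, 0 of 9 blood and endothelial genes and 0 of 6 adipocyte and osteoblast genes passed, and 2 of 11 myoblast genes rose. The 18S ribosomal RNA control nearest the 5′ end had ratios of 0.889, 3.919, 2.668 and 5.241 in the late window, against 0.411, 1.4, 0.447 and 0.828 in the early window and 0.849 at 0 h. The part of these differences in the results below was not tested.

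A smooth change along the 6 h was called for 8 of the 10 transporters, where 38.0% of all genes were called, and the shapes differed. For Slc7a11 this call was lost under 14 of 20 alternatives. Slc3a2 and Slc7a1 were lowest at 0 h and stood near or above 1 from 1.5 h on. Slc7a5, Slc1a4, Slc1a5 and Slc38a1 rose in the late window against the early window, by 1.54-fold, 1.41-fold, 1.16-fold and 1.38-fold. Among single probe sets that rise passed on 1 of 2 for Slc1a5 and on 1 of 2 for Slc38a1. Slc38a2 fell in the middle window against the early window, to 0.803 of it, and its late values were back among the early ones. The fall passed on 1 of its 3 probe sets. Slc7a3 and Slc6a9 passed no test.

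The test of any smooth course, a limma F test of a natural spline of time with 4 degrees of freedom, called 8 members at a Benjamini-Hochberg adjusted p under 0.05, where 38.0% of all 18193 genes were called. The members' median F was 6.18, against 2.84 over all genes. Because the members were chosen with earlier results of these data known, their difference from all genes was not tested. The median ratio of the highest to the lowest array was 1.55 for members and 1.37 for all genes. In the window comparisons, limma called 0 members in the early window against 0 h, where 3.26% of all genes passed (1.46% higher and 1.81% lower). At an unadjusted p under 0.05 there were 2 of 10 members and 3626 of 18193 genes in that comparison. That comparison rests on the single 0 h array, and its 594 calls became 45 under quantile normalization and 298 to 1431 when 1 array was left out, with 0 to 2 members called. It called 2 members in the middle against the early window, Slc1a4 higher and Slc38a2 lower, where 22.2% of genes passed (7.74% higher and 14.4% lower). In the late against the early window it called 4 members, all higher, where 21.0% of genes passed (11.7% higher and 9.29% lower). Against 0 h in the late window it called 2, Slc3a2 and Slc1a5, both higher, where 18.7% of genes passed (8.80% higher and 9.90% lower). Fitted singly, the 20 probe sets of the members gave 0, 2, 6 and 4 calls in these 4 comparisons, in that order, where 3.02%, 18.0%, 15.3% and 14.7% of all probe sets passed. The median member difference in the late against the early window was 0.22 on the log2 scale, against 0.019 over all genes. These comparisons share the early window or the 0 h array, so their values for a member are not independent of each other.

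**Figure D1:**
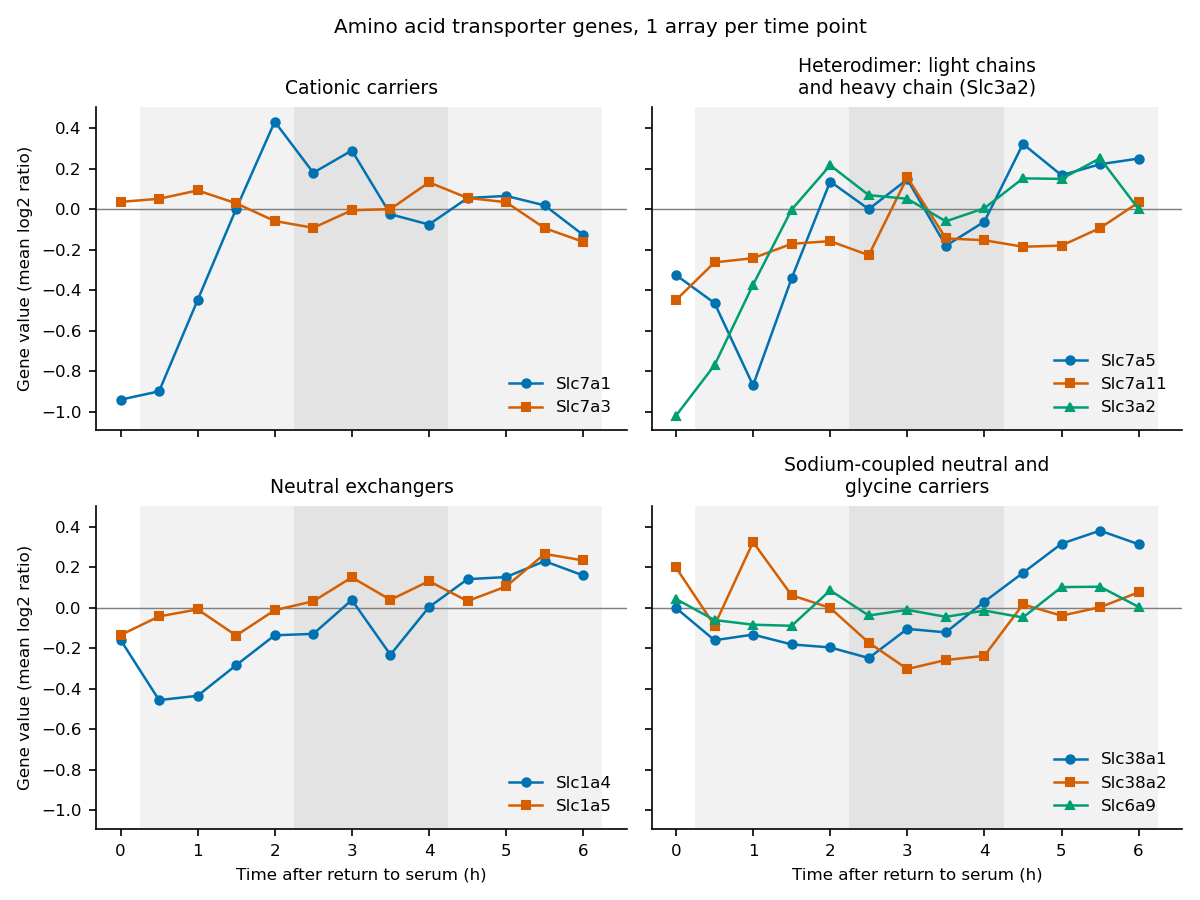
Gene value (mean log2 ratio over probe sets) of each of the 10 transporters at the 13 time points in h after the return to serum. Slc3a2 and Slc7a1 start at -1.02 and -0.94 and stand at -0.0029 and 0.0014 at 1.5 h. Slc38a2 dips at 2.5 to 4.0 h, and Slc7a5, Slc1a4, Slc1a5 and Slc38a1 are higher at 4.5 to 6.0 h than at 0.5 to 2.0 h.

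Promoters of members are shown because several members are known ATF4 targets and because the genes moved in different shapes. RefSeq windows (build GRCm38.p6, 250 bases before to 50 after an annotated start) were at hand for 6 of the 10 members, in 9 windows. Slc7a3, Slc7a5, Slc1a5 and Slc38a1 had none in the table. Both strands were searched for the C/EBP-ATF response element that ATF4 binds (TGATGNAAN), the cyclic AMP response element (TGACGTCA), the E-box bound by MYC and other factors (CACGTG) and the antioxidant response element bound by NRF2 (TGACNNNGC), and none of the member matches overlapped another. The C/EBP-ATF letters occur in 3.95% of the 32851 mouse promoter windows and the antioxidant letters in 12.4%. The cyclic AMP letters (1.79% of promoters) and the E-box letters (7.15%) were in 0 of the 9 member windows. In the sequences that follow, written 5′ to 3′ on the strand of the gene, capitals mark matches to a searched motif.
Slc7a11, chr3:50443564-50443863, minus strand: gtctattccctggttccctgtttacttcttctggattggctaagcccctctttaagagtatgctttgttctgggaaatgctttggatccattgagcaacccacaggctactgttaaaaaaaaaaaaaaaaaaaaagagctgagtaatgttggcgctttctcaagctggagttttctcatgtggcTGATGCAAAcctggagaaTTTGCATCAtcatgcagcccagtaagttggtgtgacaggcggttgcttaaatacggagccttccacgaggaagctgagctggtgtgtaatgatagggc
Slc1a4, chr11:20332664-20332963, minus strand: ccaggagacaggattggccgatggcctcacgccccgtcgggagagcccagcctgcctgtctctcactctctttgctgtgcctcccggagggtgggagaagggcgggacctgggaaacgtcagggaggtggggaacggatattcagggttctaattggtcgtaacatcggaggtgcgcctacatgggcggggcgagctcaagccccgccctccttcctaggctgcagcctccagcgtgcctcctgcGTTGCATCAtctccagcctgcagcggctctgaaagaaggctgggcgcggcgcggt
Slc7a1, chr5:148399855-148400154, minus strand: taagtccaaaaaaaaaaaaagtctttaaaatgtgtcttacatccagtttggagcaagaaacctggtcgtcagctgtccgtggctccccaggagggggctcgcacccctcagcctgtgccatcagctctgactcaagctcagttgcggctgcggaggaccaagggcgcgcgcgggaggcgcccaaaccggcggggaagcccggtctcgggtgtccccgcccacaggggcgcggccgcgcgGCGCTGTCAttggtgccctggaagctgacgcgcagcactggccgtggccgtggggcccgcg
Slc3a2, chr19:8713848-8714147, minus strand: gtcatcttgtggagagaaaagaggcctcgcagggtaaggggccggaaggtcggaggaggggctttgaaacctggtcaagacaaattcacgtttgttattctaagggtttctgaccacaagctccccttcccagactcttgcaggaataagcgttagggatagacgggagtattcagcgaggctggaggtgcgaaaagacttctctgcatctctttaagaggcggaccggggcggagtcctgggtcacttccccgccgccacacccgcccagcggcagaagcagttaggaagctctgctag

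Slc7a11 holds the C/EBP-ATF letters on both strands, TGATGCAAA on the sense strand at -66 to -58 and TTTGCATCA on the antisense strand at -48 to -40, counted from the annotated start. Slc1a4 holds them on the antisense strand across its start, from -5 to 4, as GTTGCATCA. Slc7a1 holds the antioxidant letters on the antisense strand at -11 to -3 of the window shown (GCGCTGTCA), and the Slc3a2 window holds none of the 4 motifs. Another Slc7a1 window, chr5:148392766-148393065, is not shown and also holds none. The antioxidant letters also occur in a Slc38a2 window and in 2 of the Slc6a9 windows. The windows of Slc7a11 and Slc3a2 lie inside the annotated span of their genes, at a start downstream of the outermost one. The genes themselves lie in GRCm38.p6 at chr3:50364936-50499087 (Slc7a11), chr11:20302180-20332713 (Slc1a4), chr5:148327410-148399904 (Slc7a1) and chr19:8706882-8723369 (Slc3a2). A match shows only that the letters are there, and letters outside the searched windows would be missed. Whether the letters bear on the courses was not tested.

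Slc3a2, the shared heavy chain, had the largest F of the members and was lowest at 0 h. Its only probe set had a ratio of 0.493 at 0 h, then 0.586, 0.772, 0.998 and 1.162 at 0.5, 1.0, 1.5 and 2.0 h. It stayed between 0.959 and 1.049 in the middle window and between 1 and 1.19 in the late window. Thus each later array lay above 0 h, and most of the climb fell between 0 and 2.0 h. Slc3a2 averaged a log2 ratio of 0.14 ± 0.10 in the late window (SD, n = 4), against -1.02 on the 0 h array. The late window was 2.23-fold higher than 0 h, with a log2 difference of 1.16 ± 0.24 (SE) and a limma adjusted p of 0.00478. This call held under all 19 alternatives tried, although the one that dropped _s, _x and _a sets changed nothing for Slc3a2, whose only set, 1425364_a_at, was kept. Slc3a2 in the early window was 0.79 ± 0.24 above 0 h on the log2 scale (adjusted p 0.0857), and the early arrays themselves spanned 0.586 to 1.162. Without the 0.5 h array that difference was 0.97, and the call was made (adjusted p 0.00384). The smooth course gave an F of 41.3 (adjusted p 3.82e-06).

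Slc7a1 (CAT-1), the arginine and lysine uniporter, was also lowest at 0 h. Its gene value was 0.521 at 0 h, then 0.536, 0.732, 1.00 and 1.35 at 0.5, 1.0, 1.5 and 2.0 h. The middle arrays read 1.13, 1.22, 0.983 and 0.949 at 2.5, 3.0, 3.5 and 4.0 h, and the late arrays 1.04, 1.05, 1.01 and 0.915 at 4.5, 5.0, 5.5 and 6.0 h. The highest array was thus the 2.0 h one, 2.59-fold over 0 h, and the late values lay inside the early range. Over the whole course Slc7a1 changed, with an F of 21.2 (limma adjusted p 8.92e-05), and this call held under all 20 alternatives tried. None of these left out a probe set of Slc7a1. The late window was 1.92-fold above 0 h, a log2 difference of 0.94 ± 0.32 that missed the threshold by limma (adjusted p 0.0518). It passed when the 0.5 h or the 2.0 h array was left out, which kept the difference at 0.94 and lowered only the SE, to 0.22 and 0.23. With all arrays it passed under median centring (adjusted p 0.0496) or a variance trend with a robust prior (0.0461). It also passed without the probe sets that lay under 1 on over 7 arrays (0.0480), while quantile normalization gave 0.67 (adjusted p 0.150). In the early window the difference from 0 h was 0.71 ± 0.32 (adjusted p 0.226), and it passed without the 0.5 h array (0.94, adjusted p 0.0271).

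The 3 probe sets of Slc7a1 did not agree. The 2 that share a target sequence, 1454991_at and 1454992_at, had ratios of 0.353 and 0.449 at 0 h and 1.177 and 1.299 at 2.0 h, which is 3.33-fold and 2.89-fold over 0 h. Both changed along the course (limma adjusted p 1.46e-06 and 4.32e-05), as did 30.7% of all probe sets. The other probe set, 1421533_at, had 0.891 at 0 h, stayed between 0.971 and 1.003 from 0.5 to 1.5 h, and stood at 1.605 at 2.0 h. Its course missed the threshold (adjusted p 0.261). The rise of the late window against 0 h passed for 1454991_at (log2 difference 1.45 ± 0.39, adjusted p 0.0219) and missed for 1454992_at (1.12 ± 0.38, adjusted p 0.0573). Across the 13 arrays, the Slc7a1 and Slc3a2 gene values correlated at a Pearson r of 0.94. They share every array, and both have their low values at 0 to 1.0 h.

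**Figure D2:**
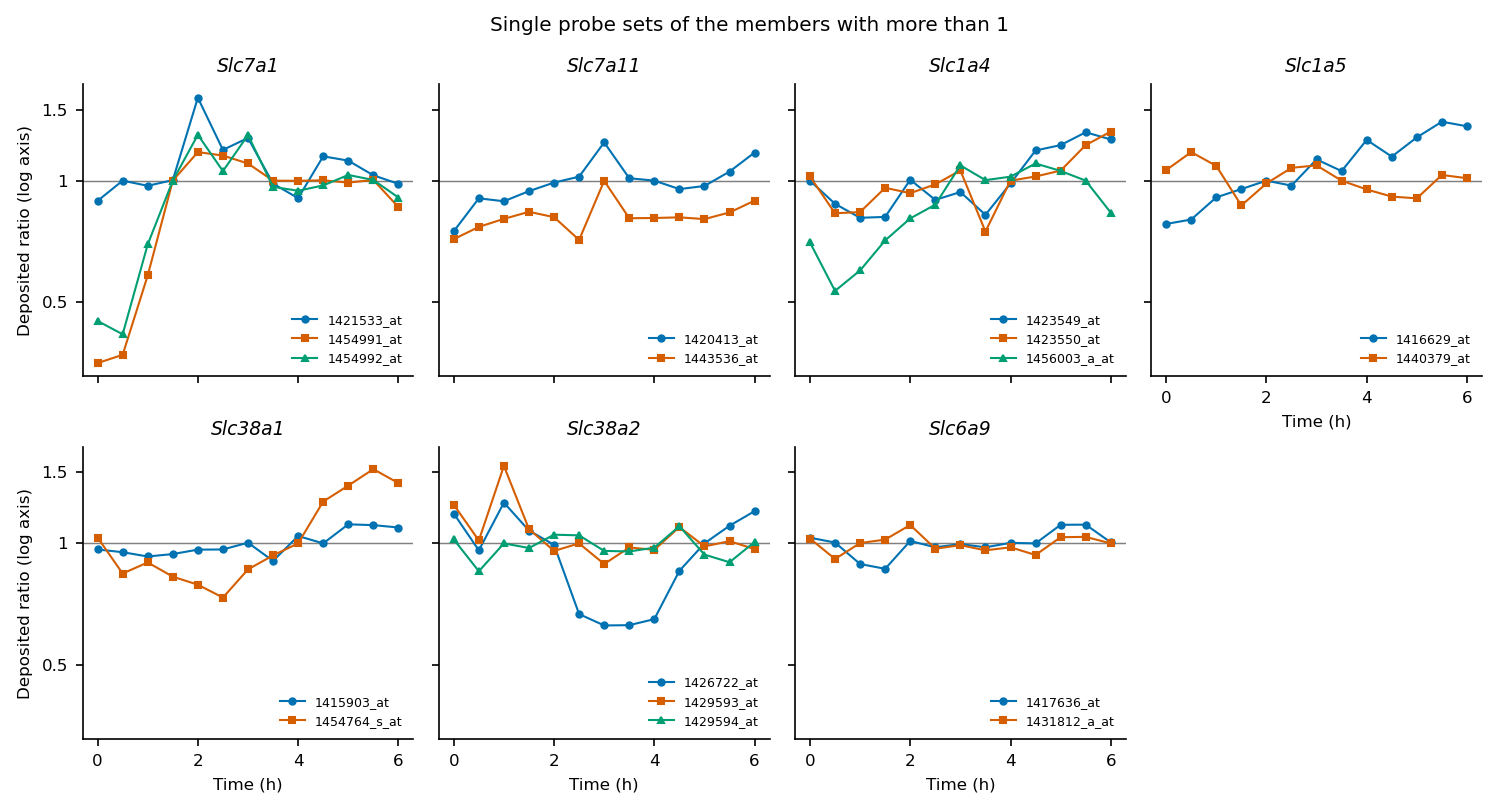
Deposited ratio (log axis) of each probe set of the transporters with more than 1 probe set, at the 13 time points in h, drawn by gene. Slc7a3, Slc7a5 and Slc3a2 have 1 probe set each and are not drawn. Probe sets of Slc7a1, Slc38a1, Slc38a2 and Slc1a5 follow different courses, and 1443536_at of Slc7a11 lies under 1 on all arrays.

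Slc7a5, the leucine exchanger that pairs with Slc3a2, had its lowest value at 1.0 h and its highest at 4.5 h, 2.29-fold apart. Its probe set had 0.798 at 0 h, then 0.725, 0.547, 0.789 and 1.099 at 0.5, 1.0, 1.5 and 2.0 h. The middle arrays had 1, 1.107, 0.882 and 0.958 at 2.5, 3.0, 3.5 and 4.0 h, and the late arrays 1.25, 1.123, 1.166 and 1.189 at 4.5, 5.0, 5.5 and 6.0 h. Every late array stood above every early array. Slc7a5 averaged 0.24 ± 0.06 on the log2 scale in the late window and -0.39 ± 0.41 in the early window (SD, n = 4 each). It rose by 0.63 ± 0.15 (SE) in the late against the early window, 1.54-fold (limma adjusted p 0.00743). Without the 0.5 and 1.0 h arrays, a comparison chosen after seeing the data, the difference was 0.34 and the call was lost (adjusted p 0.0696). Against 0 h the late window was 0.57 ± 0.24 higher, which missed the threshold (adjusted p 0.113) and passed without the 1.0 h or the 2.0 h array. Leaving either out kept the difference at 0.57 and lowered only the SE, to 0.17 and 0.16. Its smooth course passed (F 6.11, adjusted p 0.0154), but not without the 0.5 h array. Slc7a5 and Slc3a2 correlated at 0.68 across the 13 arrays.

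Slc7a11, the cystine exchanger, had its lowest value at 0 h and its highest at 3.0 h, 1.52-fold apart. The gene value was 0.732 at 0 h and between 0.833 and 0.896 on the early arrays. It reached 1.11 at 3.0 h, while the other 3 middle arrays lay between 0.854 and 0.905 and the late arrays between 0.879 and 1.02. The late window was 0.34 ± 0.12 above 0 h on the log2 scale, which missed the threshold by limma (adjusted p 0.0699). It passed without the 3.0 h array, which kept the difference at 0.34 and lowered only the SE, to 0.09. The smooth course passed narrowly (F 4.31, adjusted p 0.0447) and was lost under 14 of 20 alternatives, including 10 of the 13 in which 1 array was left out. Its probe sets differed in kind. 1443536_at lay under 1 on all 13 arrays, and 4608 of the probe sets tested lay under 1 on over 7 arrays, so these, called floor-scaled here, are not centred as the other sets are. 1420413_at alone rose in the late window against 0 h, by 0.47 ± 0.14 (limma adjusted p 0.0315).

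Slc7a3, the other cationic carrier, kept between 0.894 and 1.096 on its only probe set, a 1.23-fold range. It had 0.894 to 1.039 in the late window and 0.96 to 1.066 in the early window, and these ranges overlap. Its difference between them was -0.07 ± 0.06 on the log2 scale (limma adjusted p 0.525). Its smooth course missed the threshold (F 3.23, adjusted p 0.0937). The ratios do not tell whether its transcript was detected at all.

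Among the sodium-driven carriers of small neutral amino acids, Slc1a4 (ASCT1) rose late. Its gene value was 0.896 at 0 h, then 0.729, 0.740, 0.822 and 0.910 at 0.5, 1.0, 1.5 and 2.0 h. Middle arrays read 0.915, 1.03, 0.852 and 1.00 at 2.5, 3.0, 3.5 and 4.0 h, and late arrays 1.10, 1.11, 1.17 and 1.12 at 4.5, 5.0, 5.5 and 6.0 h. All late arrays lay above all early arrays and above 0 h. The late window rose by 0.50 ± 0.08 against the early window, 1.41-fold (limma adjusted p 0.000356), and this held under all 20 alternatives. Against 0 h the late window was 0.33 ± 0.12 higher, which missed the threshold (adjusted p 0.0744) and passed without the 2.0 h array. Leaving that array out kept the difference at 0.33 and lowered only the SE, to 0.11. Each of its 3 probe sets rose in the late against the early window, by 0.52, 0.38 and 0.60 on the log2 scale (adjusted p 0.000418, 0.0273 and 0.00261). The middle window was higher than the early one by 0.25 ± 0.08 (adjusted p 0.0326), and here the probe sets parted. 1456003_a_at gave 0.60 ± 0.12 (adjusted p 0.00328), while 1423549_at and 1423550_at gave 0.06 ± 0.08 and 0.08 ± 0.11. Without 1456003_a_at the gene difference was 0.069 and the call was lost (adjusted p 0.598), and it was also lost when the 0.5, 1.0, 3.0 or 4.0 h array was left out.

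Slc1a5 (ASCT2), a glutamine exchanger, rose late on 1 of its 2 probe sets. 1416629_at had 0.781 at 0 h, 0.801, 0.909, 0.953 and 1 in the early window, 0.972 to 1.262 in the middle window and 1.147, 1.28, 1.4 and 1.364 in the late window. It rose by 0.50 ± 0.09 in the late against the early window (limma adjusted p 0.00153) and by 0.73 ± 0.15 in the late window against 0 h (adjusted p 0.00468). 1440379_at gave -0.08 ± 0.09 in the late against the early window (adjusted p 0.631). The mean of both gave a gene difference of 0.21 ± 0.06, 1.16-fold (adjusted p 0.0248). That call was lost when the 1.5, 5.5 or 6.0 h array was left out, and without the 0.5 and 1.0 h arrays (adjusted p 0.0688). Against 0 h the gene rose by 0.29 ± 0.10 in the late window (adjusted p 0.0485), a call that was lost under 15 of 19 alternatives. Its smooth course passed (F 5.77, adjusted p 0.0186) and was lost without the 5.5 or the 6.0 h array.

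Slc38a1 (SNAT1), a sodium-coupled glutamine importer, lay below its 0 h value from 0.5 to 3.5 h and above it from 4.0 h. Its gene value was 0.999 at 0 h, 0.873 to 0.912 on the early arrays and 0.842, 0.930, 0.919 and 1.02 at 2.5, 3.0, 3.5 and 4.0 h. The late arrays read 1.13, 1.25, 1.30 and 1.24 at 4.5, 5.0, 5.5 and 6.0 h. All 4 late arrays lay above every other array. Slc38a1 averaged 0.30 ± 0.09 on the log2 scale in the late window and -0.17 ± 0.03 in the early window (SD, n = 4 each). The rise of 0.46 ± 0.06 (SE) was 1.38-fold (limma adjusted p 0.000151) and passed under all 20 alternatives, but its size depended on the probe sets used. Most of it lay on 1454764_s_at, which rose by 0.74 ± 0.09 (adjusted p 6.52e-05), while 1415903_at gave 0.19 ± 0.07 (adjusted p 0.0640). The suffix _s marks a set whose probes can match more than 1 transcript. Without that set the late rise of the gene was 0.19 (adjusted p 0.0325 over genes), which is the value of 1415903_at that missed the threshold over probe sets. Without it the smooth course, otherwise called with an F of 24.5 (adjusted p 4.47e-05), missed the threshold (adjusted p 0.0869). Against 0 h the late window was 0.30 ± 0.10 higher (adjusted p 0.0528), and it passed when the 2.5, 4.0 or 4.5 h array was left out. Without the 2.5 or the 4.0 h array the difference stayed at 0.30 and only the SE fell, to 0.09. Without the 4.5 h array the difference was 0.34.

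Slc38a2 (SNAT2), which is known to be induced when cells lack amino acids, was the member that fell in the middle of the course. Its gene value was 1.15 at 0 h, then 0.941, 1.25, 1.04 and 1.00 at 0.5, 1.0, 1.5 and 2.0 h. The middle arrays read 0.888, 0.811, 0.836 and 0.848 at 2.5, 3.0, 3.5 and 4.0 h, all below every early array, and the late arrays 1.01, 0.973, 1.00 and 1.05. The fall in the middle against the early window was -0.32 ± 0.07 on the log2 scale (limma adjusted p 0.00868) and held under all 20 alternatives. None of these left out a probe set of Slc38a2, so they cannot show whether the fall rests on 1 set. The late window stood -0.06 ± 0.07 from the early one (adjusted p 0.655). Here again 1 probe set carried the change. 1426722_at had 0.668, 0.626, 0.627 and 0.649 on the middle arrays, against 0.961, 1.262, 1.076 and 0.992 on the early arrays, a difference of -0.73 ± 0.10 (adjusted p 0.000385). The other 2 sets, which share a target sequence, gave -0.24 ± 0.12 and 0.02 ± 0.08 (adjusted p 0.164 and 0.866). The smooth course of the gene passed (F 6.24, adjusted p 0.0145), though not without the 3.0 h array.

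Slc6a9, the glycine importer, had a gene value with a 1.14-fold range between its lowest and highest array. Its single probe sets ranged more widely, from 0.865 to 1.113 on 1417636_at and from 0.915 to 1.111 on 1431812_a_at. It lay between 0.967 and 1.07 in the late window and between 0.940 and 1.06 in the early window. The difference of 0.08 ± 0.06 missed the threshold (limma adjusted p 0.387), as did the smooth course (F 0.480, adjusted p 0.802).

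**Figure D3:**
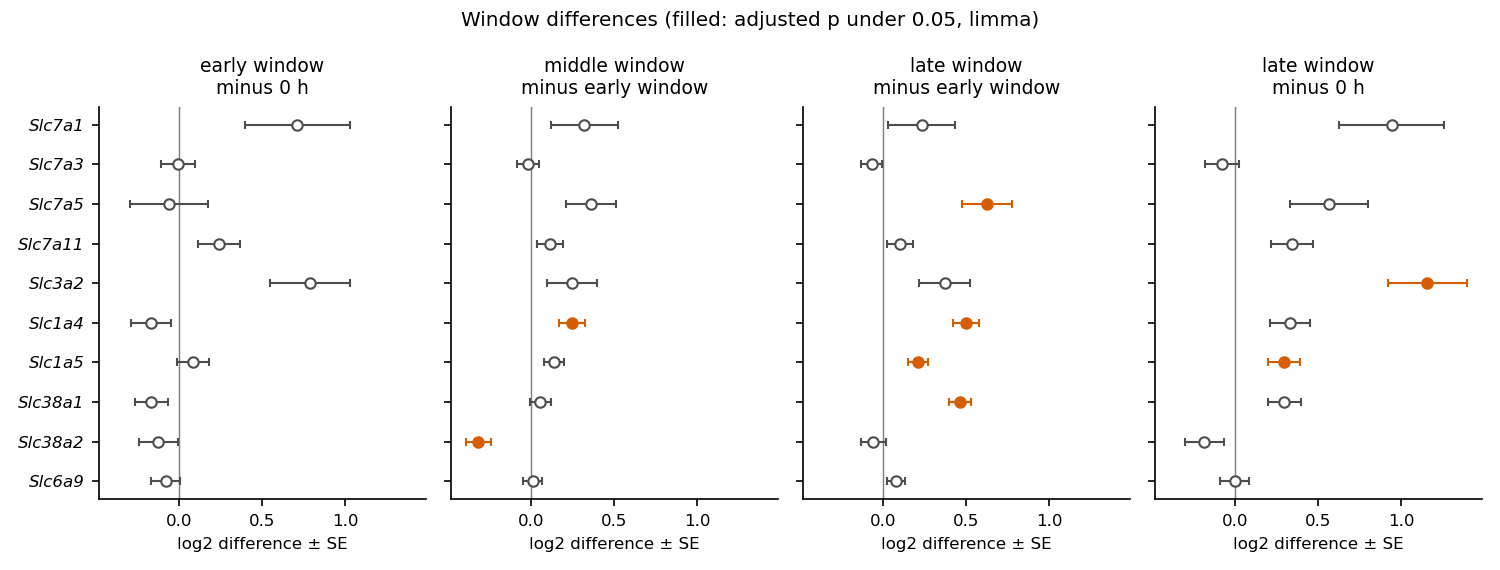
Difference of window means on the log2 scale for each of the 10 transporters, with bars of 1 SE from the limma fit, in the 4 window comparisons. Filled points passed at an adjusted p under 0.05. In the late against the early window Slc7a5, Slc1a4, Slc38a1 and Slc1a5 passed, and in the middle against the early window Slc38a2 passed below 0.

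The order of the members in the late against the early window ran from Slc7a5 (0.63) through Slc1a4 (0.50), Slc38a1 (0.46), Slc3a2 (0.37), Slc7a1 (0.23) and Slc1a5 (0.21) to Slc7a3 (-0.07). Slc7a11 (0.10), Slc6a9 (0.08) and Slc38a2 (-0.06) lay between the last of these, and differences between members were not tested. The order depends on single early arrays. Slc3a2 missed the threshold here (limma adjusted p 0.104), and leaving out the 2.0 h array raised it to 0.52, past the threshold (adjusted p 0.00973). Leaving out the 0.5 h array lowered it to 0.19 (adjusted p 0.269), and dropping both the 0.5 and 1.0 h arrays left 0.031. Slc7a1 had 0.45 without the 2.0 h array, 0.0081 without the 0.5 h array and -0.21 without the 0.5 and 1.0 h arrays, and it passed in none of these. The gene values of all late arrays lay above those of all early arrays for Slc7a5, Slc1a4, Slc1a5 and Slc38a1, and 14.1% of all genes had late values wholly above the early ones. In the middle against the early window Slc1a5 lay wholly higher and Slc38a2 wholly lower, as did 8.03% and 15.0% of all genes. In the middle against the early window Slc7a1 (0.32 ± 0.20), Slc7a5 (0.36 ± 0.15) and Slc3a2 (0.25 ± 0.15) missed the threshold (limma adjusted p 0.273, 0.0968 and 0.260). Leaving out the 2.0 h array moved them to 0.54, 0.53 and 0.40, all past the threshold, and leaving out the 0.5 h array moved them to 0.097, 0.33 and 0.069. Without both the 0.5 and 1.0 h arrays they were -0.12, 0.079 and -0.091, so the direction for Slc7a1 and Slc3a2 turned.

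The study set out to find genes that oscillate, as the segmentation clock does, so each member was also tested for a cycle. A cosine and sine with a period of 2 h on top of a smooth trend called 0 members and 0 of 18193 genes by limma. At an unadjusted p under 0.05 there were 0 members and 721 genes, and the lowest unadjusted p of a member was 0.188. Cycles of 1.5 and 3 h also called 0 members, where they called 0 and 74 of all genes.

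Across the 13 arrays the members fell in part into similar courses, given here as a description, since all pairs share the same arrays. Slc7a5 and Slc1a4 correlated at 0.89, Slc1a4 and Slc38a1 at 0.81, Slc1a4 and Slc1a5 at 0.74, and Slc7a11 and Slc1a5 at 0.71. The genes outside the members with the most similar course to Slc7a1 were Map2k3 (r = 0.993), Srfbp1 (0.987) and Msrb3 (0.980). For Slc3a2 they were Ttc39b (0.983), Eif1a (0.974) and Trmt10a (0.970). Slc7a5 was closest to Slc6a8 (0.953), Blcap (0.941) and Jrk (0.935), and Slc1a4 to Dok1 (0.962), Psph (0.959) and Fam98a (0.945). Slc38a1 was closest to Rexo4 (0.986), Suox (0.972) and Kat2a (0.967), and Slc1a5 to Car6 (0.930), Lgr6 (0.898) and Aldh1l2 (0.893). The closest to Slc38a2 were Ubap1 (0.932), Inpp5f (0.916) and Cryz (0.903), and to Slc7a11 Trim31 (0.913), Gm5481 (0.893) and Ercc8 (0.879). These values rank 18193 genes over 13 arrays and carry no test.

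Other genes of amino acid transport and use were counted from lists drawn up by known function. Of 42 other amino acid transporters measured, 1 rose and 5 fell in the late against the early window, with a median difference of 0.0075. The riser was Slc7a6, another light chain that pairs with Slc3a2, at 0.66 ± 0.07 (limma adjusted p 3.85e-05). Those that fell included Slc43a2 (-0.23 ± 0.06) and Slc43a1 (-0.25 ± 0.08), facilitators of large neutral amino acids, and Slc7a2 (-0.19 ± 0.06), a cationic carrier. Slc38a6 (-0.32 ± 0.09) and the taurine importer Slc6a6 (-0.21 ± 0.07) also fell. Higher calls were thus 4 of 10 among the members and 1 of 42 among the rest of the transporters, beside 11.7% of all genes. Members and lists were chosen with earlier results of these data known, and the difference between them was not tested.

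Of 26 measured ATF4-response genes outside transport, 11 rose and 5 fell in the late against the early window, with a median of 0.17, where 11.7% of all genes rose and 9.29% fell. Asns, which makes asparagine, rose by 1.55 ± 0.18 (limma adjusted p 4.85e-05). Phgdh and Psph, enzymes of serine synthesis, rose by 1.04 ± 0.12 and 1.22 ± 0.14, Shmt2, which makes glycine from serine in mitochondria, by 0.91 ± 0.09, and Cth, which makes cysteine, by 1.21 ± 0.15. Atf3, a stress-induced transcription factor, changed by -2.62 ± 0.31. In the early window against 0 h 4 of the 26 rose, where 1.46% of all genes did, and these were named after their values were seen: Atf3 (2.35 ± 0.49), Ddit3 (1.39 ± 0.35), Ppp1r15a (0.72 ± 0.16) and Atf4 itself (0.65 ± 0.10). Against 0 h in the late window 9 rose and 0 fell, where 8.80% of all genes rose and 9.90% fell.

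Of 19 measured aminoacyl-tRNA synthetases, the enzymes that load amino acids for protein synthesis, 16 rose and 0 fell in the late against the early window, with a median of 0.49. In this comparison, which all counts of this paragraph use, 11.7% of all genes rose and 9.29% fell. Mars1 rose by 0.77 ± 0.07, Gars by 0.73 ± 0.09, Yars by 0.66 ± 0.10, Farsb by 0.63 ± 0.08, Wars by 0.62 ± 0.09 and Lars by 0.52 ± 0.07. Of 11 NRF2 and glutathione genes, 2 rose (Gss 0.63 ± 0.09 and Gclm 0.29 ± 0.08) and Osgin1 fell (-0.70 ± 0.10). Of 23 genes of amino acid sensing and mTORC1, 1 rose and 6 fell, with a median of -0.0016. Lars, which also senses leucine and stands in both lists, is the riser. Sesn3 (-1.44 ± 0.13) and Sesn1 (-0.73 ± 0.23), of a family that restrains mTORC1, fell, as did Tsc2 (-0.32 ± 0.07), Rragc (-0.32 ± 0.08) and Castor2 (-0.24 ± 0.07).

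**Figure D4:**
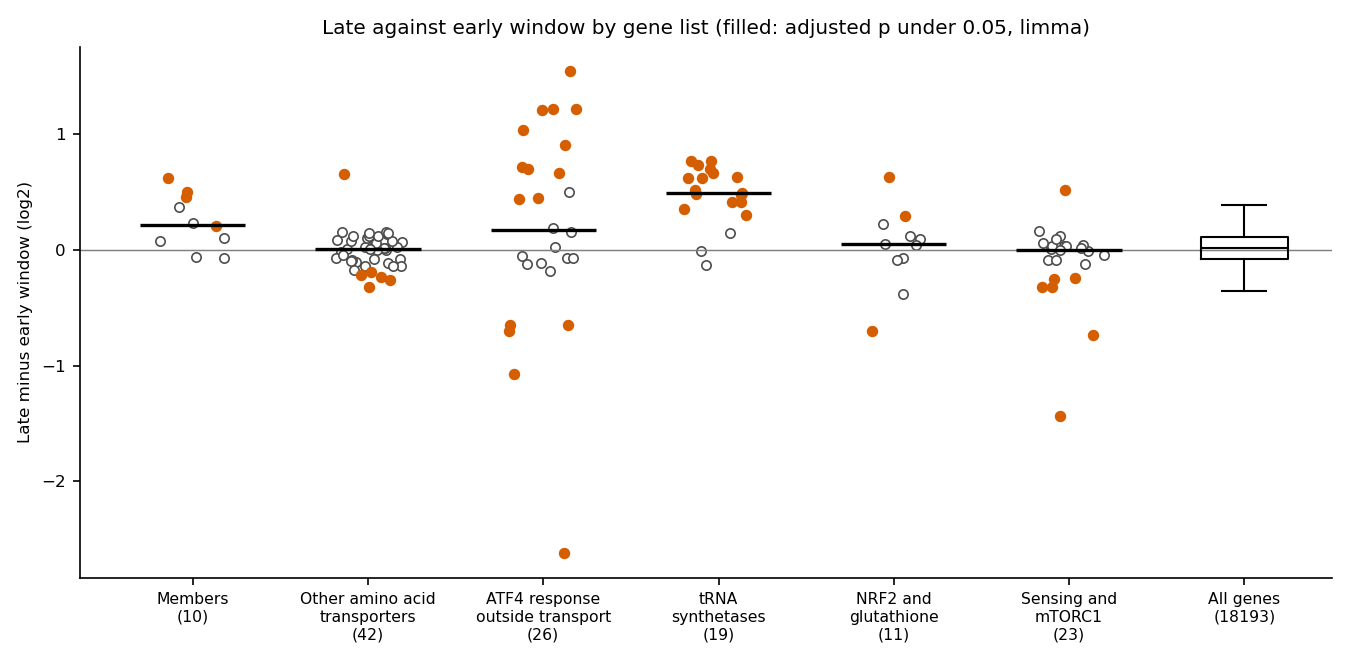
Difference between the late and the early window (log2 scale) for each measured gene of the transporters and of the 5 other lists, with the median of each list as a line; filled points passed at an adjusted p under 0.05. The box shows the median and quartiles of all 18193 genes, with whiskers from the 5 to the 95 percentile. The synthetase list has a median of 0.49, the ATF4 list 0.17 and the transporters 0.22, while the other transporters have 0.0075.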

How the data were processed

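Total RNA from C2C12 cells had been biotin-labelled and hybridised to 1 array per time point, per the labels' protocols. The values the authors deposited are linear ratios per probe set; RMA is named without a version, per the submitters' processing notes, and the sources used here do not state how the ratios were formed. A ratio holds no signal level, so no dim-probe filter, background correction or slide block could be run, and the number of arrays limits the precision. The log2 of the ratio was averaged over the probe sets of a gene, from the platform annotation. The 64 array controls were left out. Of the 45037 probe sets, 34945 named 1 gene, 932 several and 9160 none.

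All 18193 genes entered each fit with limma 3.58.1 in R 4.3.3 (lmFit and eBayes, two-sided), and p-values were adjusted by Benjamini-Hochberg over all of them. Probe sets were fitted likewise over 45037. Figures used Python 3.11.15 and matplotlib 3.10.9. With 1 array at 0 h, its error is taken from the spread of the windows. The oscillation test added a cosine and a sine to a trend spline (3 degrees of freedom). On simulated data, the late against early fit over 18193 genes found 85.1% of the genes changed by 0.5 (log2), and the early window against 0 h 56.7%. Named genes were all members, the 3 genes with the most similar course to each member whose smooth course passed, and up to 6 genes per list with the smallest late against early p that had passed any window comparison; Ddit3, Ppp1r15a and Atf4 were added after their values were seen. Members and lists were chosen with earlier results of these data known. Alternatives were other normalizations, a variance trend with a robust prior, other probe set filters, windows, splines and periods, and leaving out each array. Fits without the 0.5 and 1.0 h arrays were added after seeing the data.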

Additional observations from a re-analysis of the deposited data

Results flagged for a closer look

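In 5 of 81 windows of 4 arrays checked among the members and their probe sets, 1 array stood far from the other 3 (a gap to the nearest one above Dixon's critical share of the range), where chance gives about 1 in 20. The arrays of a window follow each other in time, so a gap can also be a change with time. Slc6a9 stood at 1.06 at 2.0 h, while the other early arrays lay between 0.940 and 0.959. The Slc7a1 probe set 1421533_at stood at 1.605 at 2.0 h, against 0.971 to 1.003 on the other early arrays. The Slc7a1 probe set 1454991_at stood at 0.86 at 6.0 h, against 0.989 to 1.004 on the other late arrays. The Slc7a11 probe set 1420413_at stood at 1.244 at 3.0 h, against 1 to 1.023 on the other middle arrays. The Slc38a1 probe set 1415903_at stood at 1 at 4.5 h, against 1.095 to 1.115 on the other late arrays.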

How the results depend on the processing

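No paired analysis was possible because each time point has 1 array and the labels carry no replicate numbers. Of 1190 values of members under alternatives, 1095 kept direction and side of the threshold, 45 lost their call, 29 gained one and 21 turned direction. For the early window against 0 h, 594 genes were called, with 45 under quantile normalization, 250 with an early window of 0.5 to 1.5 h, 1692 without the 0.5 and 1.0 h arrays and 298 to 1431 leaving out each array; members called were 0, with 2 without the 0.5 and 1.0 h arrays and 0 to 2 leaving out each array. For the middle against the early window, 4033 genes fell to 2284 with the 0.5 to 1.5 h window and to 1788 without the 0.5 and 1.0 h arrays; members called were 2, with 1 without _s, _x or _a sets, 5 with the 0.5 to 1.5 h window, 1 without the 0.5 and 1.0 h arrays and 1 to 5 leaving out each array. In the late against the early window 4 members were called, with 2 without the 0.5 and 1.0 h arrays and 3 to 5 leaving out each array. In the late window against 0 h, 3402 genes became 1902 under quantile normalization; members called were 2, with 1 under quantile normalization or without _s, _x or _a sets (dropped only where a gene has other sets, so Slc3a2 kept its own), 4 without floor-scaled sets or the 0.5 and 1.0 h arrays, and 1 to 4 leaving out each array. The smooth course called 8 members, and 6 to 8 leaving out each array. A period of 3 h called 74 genes, against 0 at 2 h.

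None of the members that turned direction had been called in that comparison. In the early window against 0 h, Slc7a3 (-0.0074) was 0.018 under quantile normalization, 0.00057 under median centring, 0.022 with the 0.5 to 1.5 h window and -0.029 to 0.022 leaving out each array. Slc7a5 (-0.06) was -0.23 to 0.10 leaving out each array and 0.22 without the 0.5 and 1.0 h arrays. In the middle against the early window, the fit without the 0.5 and 1.0 h arrays gave 0.024 for Slc7a3, -0.025 for Slc6a9, -0.12 for Slc7a1 and -0.091 for Slc3a2, and leaving out each array gave -0.061 to 0.014 for Slc7a3 and -0.0074 to 0.051 for Slc6a9. In the late against the early window, Slc7a1 was -0.21 without the 0.5 and 1.0 h arrays and Slc38a2 -0.11 to 0.023 leaving out each array. Slc6a9 in the late window against 0 h was 0.031 under quantile normalization, 0.032 without _s, _x or _a sets, 0.027 with a late window of 5.0 to 6.0 h and -0.024 to 0.027 leaving out each array. The cause was not tested.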
